A study of Mus musculus with 22 samples.

Results

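The 10 genes described here encode 6 prostanoid receptors (Ptger1, Ptger2, Ptger3, Ptger4, Ptgir and Tbxa2r) and 4 enzymes of prostanoid synthesis (Ptgs1, Ptgs2, Ptgis and Ptges). They were taken by gene symbol from the 28099 genes of the table, and each symbol matched 1 gene. RNA had been sequenced from arterial smooth muscle cells isolated by flow sorting, with 4 libraries from intestine and 3 each from the bladder, stomach, kidney, lung, heart and aorta, 22 in all, and the study asked how these cells differ between tissues. All mice carried Acta2-CreERT, a tamoxifen-inducible Cre driven by the smooth muscle actin gene, and R26-GFP, a reporter at the Rosa26 locus, and all received intraperitoneal tamoxifen on 3 days, 0.75 mg for every 10 g of weight. The other recombinase was Cspg4-Dre, driven by the gene of the mural cell proteoglycan NG2, in 6 tissues and Cspg4-DreERT in heart, so that heart and its genotype cannot be told apart. The labels gave no age. They did not say that each library was a different mouse, and the p-values therefore reflect only how far these libraries scattered, which may be technical.

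Values are the deposited signal, which is reads per gene multiplied by a factor for each library. Dividing by that factor gave rebuilt reads, whose total was 629456, 1540366 and 1927765 in aorta 1, 2 and 3 and 817157 in heart 3, against 4389363 to 12708448 in the other 18 libraries. A count of 0 therefore allowed a signal of up to 28.3, 12.2 and 9.9 in aorta 1, 2 and 3 and 24.3 in heart 3 (3 reads, counting error only). The smooth muscle gene Acta2 was well above 0 in all 22 libraries, and the summed signal of 10 smooth muscle markers lay between 11325 and 88215. Markers of other cell types were present too, and their values stand beside the results they moved with. In no library did any gene exceed 2.28 reads per exonic base, and the highest gene of each library lay between 1.78 and 2.28 whatever its depth. Acta2, which drives the Cre, had between 1925 and 3775 rebuilt reads in every library, whereas Cspg4, which drives the Dre, had 11 in bladder 3 and 5090 in kidney 1. Of the 10 genes, 6 reached 0.5 reads per base somewhere (Ptgir, Tbxa2r, Ptgs1, Ptgs2, Ptgis and Ptges), so the signal of these 6 may not have scaled with abundance where they were high, and the extent was not tested. The same limit holds for other genes of high signal named below. Their signal in the shallow aorta libraries and heart 3 may stand high through the library factor, which was not tested.

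Prostanoids are short-lived lipid signals made from arachidonic acid. The cyclooxygenases COX-1 (Ptgs1, generally constitutive) and COX-2 (Ptgs2, generally inducible) make prostaglandin H2, from which prostacyclin synthase (Ptgis) makes prostacyclin and microsomal prostaglandin E synthase 1 (Ptges) makes prostaglandin E2 (PGE2). In arteries, prostacyclin acting on its Gs-coupled receptor IP (Ptgir) relaxes smooth muscle, and thromboxane A2 acting on TP (Tbxa2r) contracts it. The PGE2 receptors EP2 (Ptger2) and EP4 (Ptger4) raise cyclic AMP and generally relax smooth muscle, EP3 (Ptger3) couples mainly to Gi, and EP1 (Ptger1) acts mainly through calcium.

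Of the 10 genes, 8 matched a promoter entry, and Ptger1 and Ptgis did not. The promoters of the COX genes and of Ptges are shown because these 3 enzymes had their highest mean signal in bladder, and Ptgs1 and Ptges varied together across libraries. The sequences are from RefSeq on GRCm38.p6, run 5′ to 3′ from 250 bases before to 50 bases after the start site, and the capitals mark matches to the searched motifs.
Ptgs1, chr2:36230176-36230475, plus strand: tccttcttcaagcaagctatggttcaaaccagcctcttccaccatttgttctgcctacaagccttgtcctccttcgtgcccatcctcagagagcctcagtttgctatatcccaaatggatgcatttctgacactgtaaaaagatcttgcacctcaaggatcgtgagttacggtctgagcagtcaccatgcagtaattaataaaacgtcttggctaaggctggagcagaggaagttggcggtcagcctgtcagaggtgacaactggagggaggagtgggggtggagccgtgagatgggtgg
Ptgs2, chr1:150099781-150100080, plus strand: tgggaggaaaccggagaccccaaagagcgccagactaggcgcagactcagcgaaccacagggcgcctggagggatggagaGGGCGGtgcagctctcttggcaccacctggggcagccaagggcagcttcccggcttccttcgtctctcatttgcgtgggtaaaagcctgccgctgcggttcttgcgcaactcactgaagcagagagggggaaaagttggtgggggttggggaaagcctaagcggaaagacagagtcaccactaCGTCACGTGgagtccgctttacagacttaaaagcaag
Ptges, chr2:30903248-30903547, minus strand: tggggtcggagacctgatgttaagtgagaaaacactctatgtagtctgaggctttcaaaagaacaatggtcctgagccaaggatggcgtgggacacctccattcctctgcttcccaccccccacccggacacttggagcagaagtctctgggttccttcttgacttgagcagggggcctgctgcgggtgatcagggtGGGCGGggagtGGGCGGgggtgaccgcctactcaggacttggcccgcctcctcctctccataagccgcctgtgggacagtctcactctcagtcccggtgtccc
The motifs searched on both strands were the TATA box TATAAA, the CCAAT box CCAAT, the GC box GGGCGG, the cyclic AMP response element half-site TGACG, the E-box CACGTG and the CArG box, which serum response factor binds. The Ptgs2 promoter held a GC box at -170, a TGACG on the minus strand at 13 and an E-box at 16 bases from the start site, the last 2 overlapping. The Ptges promoter held 2 GC boxes, at -53 and -42. None of these letters was found in the Ptgs1 window. Of 32851 promoters in the same table, 35.7% held the GC box, 20.8% TGACG, 7.15% the E-box, 37.4% the CCAAT box, 13.6% the TATA box and 1.63% the CArG box. The Ptgs2 window held 16 CpG dinucleotides, that of Ptges 10 and that of Ptgs1 6, against a median of 7 over all promoters.

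All 10 genes differed between the 7 tissues in the limma F test, and the differences ran in different directions for different genes. Ptgis was higher in aorta than in every other tissue, while Ptgir was lower there than in every other tissue. Bladder had the highest Ptgs1, Ptgs2 and Ptges and the lowest Tbxa2r, lung the highest Tbxa2r and Ptger2, kidney the highest Ptger3, and intestine the highest Ptger1 and Ptger4 by mean signal. Over all 16917 genes tested, 59.6% passed the same F test (adjusted p under 0.05 by the Benjamini-Hochberg method), so passing it was common. When each tissue was set against the mean of the other 6, 26 of the 70 combinations of gene and tissue passed, against 21.5% of the combinations over all tested genes. Between pairs of tissues 84 of 210 combinations passed, against 20.9%.

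Aorta had 9 of the 26 calls, 2 higher (Tbxa2r and Ptgis) and 7 lower (Ptger1, Ptger2, Ptger4, Ptgir, Ptgs1, Ptgs2 and Ptges). Over all tested genes 9.15% were higher and 42.8% lower in aorta, so lower calls there were frequent in general. The median log2 fold change in aorta was -3.56 over the 10 genes and -1.04 over all tested genes. Intestine had 4 higher (Ptger1, Ptger4, Ptgs1 and Ptges) and 2 lower (Tbxa2r and Ptgis), against 15.5% higher and 9.97% lower over all tested genes. Bladder had 3 higher (Ptgs1, Ptgs2 and Ptges) and 1 lower (Tbxa2r), against 8.31% and 7.4%. Lung had Tbxa2r higher and Ptger3 and Ptgs2 lower, against 4.43% and 3.48%. Stomach had Ptger1 higher and Ptgis lower, against 13.4% and 6.93%. Kidney had Ptger3 higher, against 6.35% higher and 4.11% lower over all tested genes. Heart had Ptgs1 lower, against 6.03% higher and 12.4% lower. Of the 26 calls, 14 held under every one of 35 alternative settings that tested them and 12 were lost under at least 1, and each of these is given with its gene.

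**Figure D1:**
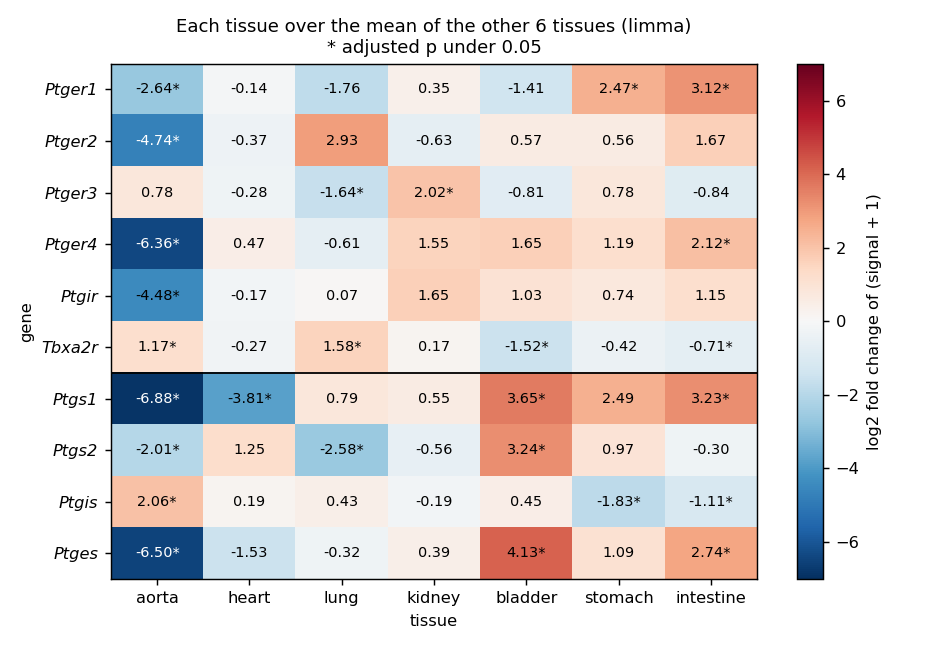
Log2 fold change of signal + 1 for each of the 10 genes (rows, receptors above the line and enzymes below) in each tissue over the mean of the other 6 (columns), with an asterisk at adjusted p under 0.05. Ptgis and Tbxa2r are the only genes with a positive asterisk in aorta, at 2.06 and 1.17, and the most negative values of the map, -6.88, -6.50 and -6.36 for Ptgs1, Ptges and Ptger4, stand in the same column, where most of these libraries were at 0.

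Tbxa2r, the thromboxane receptor (ENSMUSG00000034881, mm39 chromosome 10, 81164565 to 81171006, plus strand), had a signal of 961, 978 and 908 in lung 1, 2 and 3 and 641, 803 and 793 in aorta 1, 2 and 3. It had 316, 683 and 319 in kidney, 383, 288 and 283 in heart, 311, 229 and 334 in stomach, 218, 247, 219 and 291 in intestine and 146, 96 and 237 in bladder. The lung libraries lay above all 19 others, and the aorta libraries above all but the lung libraries and kidney 2. In limma, lung was higher than the mean of the other 6 tissues (log2 fold change 1.58, SE 0.25, adjusted p = 0.000488), as was aorta (1.17, SE 0.25, adjusted p = 0.00107). Bladder was lower (-1.52, SE 0.25, adjusted p = 0.000354). The lung and bladder calls held under every alternative, and the aorta call was lost with array weights (adjusted p = 0.141 in limma). Intestine was lower by a smaller amount (-0.71, SE 0.22, adjusted p = 0.0248), a call that was lost without intestine 1, 2 or 3 or without the aorta libraries (adjusted p = 0.0625 to 0.0898 over those fits). Lung and aorta did not differ beyond their spread (0.35, adjusted p = 0.451), and lung over bladder was the widest pair (2.66, SE 0.33, adjusted p = 2.54e-05).

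Per exonic length, Tbxa2r was the highest of the 6 receptors in 19 of 22 libraries, and Ptgir was the highest in bladder 1, bladder 2 and kidney 1. In aorta Tbxa2r rested on 68, 198 and 240 rebuilt reads. Aorta 1 had 68 rebuilt reads of Tbxa2r, against 35 in heart 3, the library nearest to it in depth. Platelets also carry this receptor. The summed signal of 8 platelet markers was 222 to 303 in lung, 80 to 559 in aorta and 1000 to 1747 in intestine. By marker the order was another one. Of the 8, 7 were above 0 in every lung library, 1 in every aorta library and 4 in every intestine library. The median log2 fold change of the 4 tested was 0.89 in lung, -1.62 in aorta and 0.70 in intestine, against 0.15, -1.04 and 0.34 over all tested genes. The alveolar epithelial gene Sftpc was at 1392, 1090 and 1239 in lung, and the part of platelet and lung epithelial RNA in the Tbxa2r result was not tested.

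Ptgir, the prostacyclin receptor IP (ENSMUSG00000043017, chromosome 7, 16640415 to 16644830, plus strand), had a signal of 9, 126 and 0 in aorta, from 1, 31 and 0 rebuilt reads. It had 765, 269 and 341 in kidney, 412, 216 and 256 in bladder, 295, 401, 313 and 237 in intestine, 213, 199 and 321 in stomach, 156, 135 and 197 in lung and 94, 221 and 129 in heart. Only aorta 2 overlapped another tissue, heart. Aorta was lower than the mean of the other 6 tissues in limma (log2 fold change -4.48, SE 0.78, adjusted p = 0.000175) and lower than each of them in the pairs, with the narrowest gap to heart (aorta over heart -3.69, SE 1.02, adjusted p = 0.0171). The call against the other 6 held under every alternative, with the fold change between -6.25 and -2.25. The pairs with heart and lung were lost in edgeR and DESeq2 on rebuilt reads, and the pair with heart also with array weights. Among the 6 other tissues no pair passed, and kidney, with the highest mean (458 ± 268, SD, n = 3), owed it to kidney 1. Less RNA per cell and fewer cells of a type cannot be told apart in these sorted bulk libraries, and this holds for every level given here.

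The balance between IP and TP was compared within libraries, where the library factor cancels. The ratio of Ptgir to Tbxa2r per exonic length was 0 to 0.0903 in aorta, 0.0795 to 0.125 in lung and 0.141 to 0.442 in heart. It was 0.394 to 0.553 in stomach, 0.469 to 0.934 in intestine, 0.227 to 1.39 in kidney and 0.622 to 1.62 in bladder. Aorta and lung thus lay lowest, every library of both at or under 0.125, and every library of the other 5 tissues above it. In aorta both the low Ptgir and the high Tbxa2r contributed, and in lung Tbxa2r stood at the top of the tissue order and Ptgir below kidney, intestine, bladder and stomach by mean signal.

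**Figure D2:**
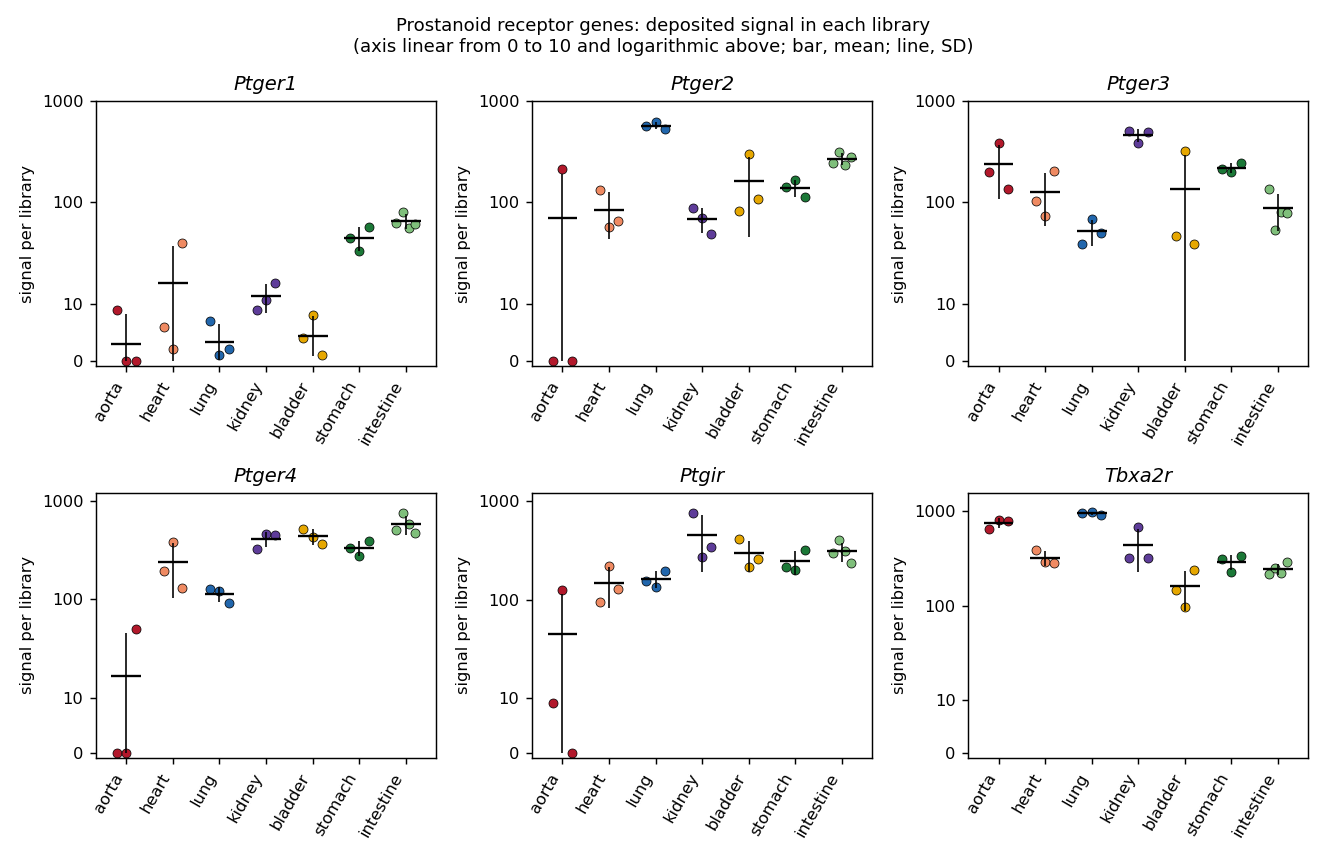
Deposited signal of the 6 receptor genes in each of 22 libraries (points, coloured by tissue), with the tissue mean (bar) and SD (line, cut at 0), on an axis that is linear from 0 to 10 and logarithmic above. Lung points lie together at the top for Ptger2 and Tbxa2r, and aorta points reach 0 for Ptger1, Ptger2, Ptger4 and Ptgir.

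Ptger2, which encodes EP2 (ENSMUSG00000037759, chromosome 14, 45225652 to 45241277, plus strand), had a signal of 561, 619 and 527 in lung. It had 246, 311, 235 and 283 in intestine, 82, 298 and 109 in bladder, 142, 165 and 112 in stomach, 133, 57 and 65 in heart, 88, 71 and 49 in kidney and 0, 211 and 0 in aorta. The lung libraries lay above all 19 others, with no overlap. Against the mean of the other 6 tissues, lung did not pass in limma (log2 fold change 2.93, SE 0.97, adjusted p = 0.0704). Lung passed without the aorta libraries (2.21 over the mean of the other 5, adjusted p = 0.000155 in limma) and without aorta 2 (3.36, adjusted p = 8.67e-06 in limma). It also passed in edgeR (2.24, adjusted p = 0.00635) and DESeq2 (2.15, adjusted p = 0.0047) on rebuilt reads. The lung libraries held 1090 to 1392 units of Sftpc, and the part of lung epithelial RNA in the Ptger2 result was not tested.

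Aorta was lower for Ptger2 in limma (-4.74, SE 0.97, adjusted p = 0.000727). That call was lost in edgeR (-1.02, adjusted p = 0.291) and DESeq2 (-1.11, adjusted p = 0.162) on rebuilt reads. The mean signal in aorta, 70.3 ± 122 (SD, n = 3), was no lower than the mean in kidney, 69.3 ± 19.6, although the limma log2 fold change of aorta over kidney was -3.52 (adjusted p = 0.0351). All of the aorta signal stood in aorta 2, from 52 rebuilt reads. That library also held 794 units of Sftpc, the lung surfactant gene, against 19 and 0 in aorta 1 and 3, and the part of lung RNA in its Ptger2 value was not tested.

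Ptger4, which encodes EP4 (ENSMUSG00000039942, chromosome 15, 5236142 to 5273668, minus strand), had a signal of 0, 0 and 50 in aorta, the last from 15 rebuilt reads. It had 509, 755, 581 and 472 in intestine, 513, 429 and 362 in bladder, 327, 461 and 444 in kidney, 328, 275 and 392 in stomach, 195, 384 and 129 in heart and 127, 121 and 92 in lung. Every aorta library lay below all 19 others. Aorta was lower than the mean of the other 6 in limma (log2 fold change -6.36, SE 0.72, adjusted p = 2.39e-06) and lower than each tissue in the pairs, and these calls held under every alternative that tested them, the fold change against the other 6 lying between -8.25 and -3.65. Aorta 1 had 0 rebuilt reads of Ptger4, against 16 in heart 3, whose depth was near to it.

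Intestine was higher for Ptger4 than the mean of the other 6 (2.12, SE 0.64, adjusted p = 0.0203 in limma), a call that was lost without intestine 1, 2 or 3 (adjusted p = 0.0525 to 0.0761 in limma). No pair among the 6 tissues other than aorta passed. Without the aorta libraries lung was lower than the mean of the other 5 (-1.71, adjusted p = 0.000143 in limma), and the lung libraries lay below those of every tissue but aorta. Ptger4 shares 11676 bases of its locus with Ttc33 on the opposite strand, whose signal was 251 to 496 over the 22 libraries. Because the kit does not mark strand, reads from the shared stretch cannot be told apart.

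Ptger3, which encodes EP3 (ENSMUSG00000040016, chromosome 3, 157272529 to 157351525, plus strand), was the EP receptor gene above 0 in every library. It had a signal of 503, 384 and 489 in kidney, 198, 385 and 135 in aorta, 215, 198 and 245 in stomach and 103, 74 and 202 in heart. It had 136, 54, 81 and 78 in intestine, 47, 319 and 39 in bladder and 39, 68 and 50 in lung. The kidney libraries lay above all others except aorta 2, which overlapped them by 1 unit. Kidney was higher than the mean of the other 6 in limma (log2 fold change 2.02, SE 0.48, adjusted p = 0.00968), a call that was lost without kidney 1 (adjusted p = 0.078) or kidney 3 (adjusted p = 0.0751). Lung was lower (-1.64, SE 0.48, adjusted p = 0.0427), close to the threshold and lost in 12 of 35 alternatives, among them those without lung 1, 2 or 3 (adjusted p = 0.231, 0.101 and 0.155 in limma). Kidney over lung (3.13, SE 0.63, adjusted p = 0.00267) and kidney over intestine (2.45, SE 0.59, adjusted p = 0.00744) passed in limma and under every alternative.

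EP3 is also made by kidney tubules, so tubule genes, which were chosen after their values were seen, stand beside it. Umod, made by the thick ascending limb, was at 966, 1820 and 3438 in kidney 1, 2 and 3, and Slc12a1, the salt transporter of the same segment, at 840, 787 and 5538. Ptger3 was at 503, 384 and 489 in the same libraries. Umod was highest in kidney 3 and Ptger3 in kidney 1, and Umod was at most 3 in every library of the other 6 tissues. The part of tubule RNA in the Ptger3 result was not tested. Bladder spread widely because of bladder 2, and without it bladder was lower than the mean of the other 6 (-1.77, adjusted p = 0.0134 in limma).

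Ptger1, which encodes EP1 (ENSMUSG00000019464, chromosome 8, 84393307 to 84399382, plus strand), was the lowest of the 10 genes. It had a signal of 63, 81, 56 and 62 in intestine and 45, 33 and 57 in stomach. It had 6, 2 and 40 in heart, 9, 11 and 16 in kidney, 4, 8 and 1 in bladder, 7, 1 and 2 in lung and 9, 0 and 0 in aorta. Both gut tissues lay above all libraries of the other 5 except heart 3, whose 40 units came from 5 rebuilt reads. Intestine was higher than the mean of the other 6 in limma (log2 fold change 3.12, SE 0.65, adjusted p = 0.00144), which held under every alternative. Stomach was higher as well (2.47, SE 0.73, adjusted p = 0.0203), which was lost without any 1 of its libraries (adjusted p = 0.0649 to 0.114 in limma). Aorta, with 1 rebuilt read in 3 libraries, passed as lower (adjusted p = 0.00616 in limma), but not in edgeR (adjusted p = 0.106), in DESeq2 (adjusted p = 0.0749) or without aorta 2 (adjusted p = 0.0531 in limma). That call was also lost with array weights and in edgeR restricted to genes under 0.5 reads per base.

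Because the kit does not mark strand, reads of Ptger1 cannot be told apart from reads of the opposite strand at its locus. Epithelial markers moved with the gut calls: 9 of 10 were higher in intestine (summed signal 5934 to 8503) and 8 of 10 in stomach (11093 to 14117), where 15.5% and 13.4% of all tested genes were higher, and the sum was 39 to 146 in heart. Their part in the Ptger1 and Ptger4 results, and in the intestine results of Ptgs1 and Ptges, was not tested.

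The makeup of the EP family differed between tissues. As a share of the summed EP signal per exonic length, Ptger2 was 79.7% to 81.5% in the lung libraries, against at most 37.5% in any other library. Ptger3 was 44.3% to 56.6% in kidney and 62.5% to 95.5% in aorta. Ptger4 was 31.5% to 45.5% in kidney and exceeded Ptger3 in kidney 2. Heart spread widely, with Ptger4 at 26.0% to 70.3%, Ptger3 at 15.8% to 47.5% and Ptger2 at 13.4% to 34.5%. Ptger4 was 47.2% to 57.4% in intestine and 36.0% to 75.7% in bladder. Stomach had no receptor above 44.0%, with Ptger4 at 36.3% to 44.0%, Ptger3 at 30.5% to 32.1% and Ptger2 at 16.1% to 27.9%. Ptger1 stayed under 10% in every library. These shares are descriptions of each library, and in aorta they rest on few reads.

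**Figure D3:**
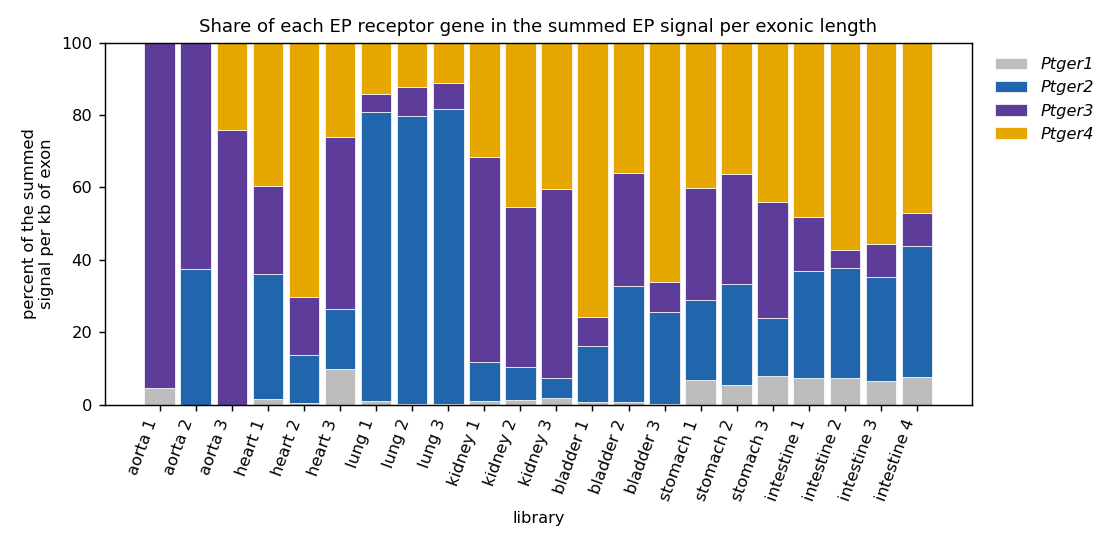
Share of Ptger1, Ptger2, Ptger3 and Ptger4 in their summed signal per kilobase of exon (vertical axis, percent) in each of 22 libraries (horizontal axis). Ptger2 makes up 79.7% to 81.5% in the 3 lung libraries, and Ptger3 44.3% to 56.6% in the 3 kidney libraries.

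Ptgs1, which encodes COX-1 (ENSMUSG00000047250, chromosome 2, 36120438 to 36142284, plus strand), had a signal of 1360, 2600 and 1231 in bladder, 1280, 1375, 1134 and 1312 in intestine and 850, 772 and 839 in stomach. It had 236, 387 and 289 in lung, 210, 353 and 234 in kidney, 73, 98 and 0 in heart and 0, 0 and 30 in aorta, the last from 9 rebuilt reads. Bladder, intestine and stomach lay above all libraries of the other 4 tissues, and heart and aorta below all others. In limma, aorta was lower than the mean of the other 6 (log2 fold change -6.88, SE 0.98, adjusted p = 2.56e-05) and intestine higher (3.23, SE 0.87, adjusted p = 0.0102), and both calls held under every alternative that tested them, with fold changes of -8.53 to -5.03 in aorta and 1.71 to 3.50 in intestine. Bladder was higher (3.65, SE 0.98, adjusted p = 0.0149), which was lost without bladder 2 (adjusted p = 0.0948) or bladder 3 (adjusted p = 0.0529). Heart was lower (-3.81, SE 0.98, adjusted p = 0.0112), and without heart 3, the library at 0, the fold change was -1.67 (adjusted p = 0.207 in limma).

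Ptgs2, which encodes COX-2 (ENSMUSG00000032487, chromosome 1, 149975782 to 149983978, plus strand), had a signal of 1878, 2488 and 753 in bladder. It had 217, 915 and 510 in heart, 466, 391 and 338 in stomach, 265, 270, 194 and 84 in intestine, 382, 77 and 135 in kidney, 9, 203 and 149 in aorta and 35, 69 and 43 in lung. Only heart 2 reached into the bladder range, and the lung libraries lay below all others except aorta 1. Bladder was higher than the mean of the other 6 in limma (log2 fold change 3.24, SE 0.67, adjusted p = 0.00236), which held under every alternative. Lung was lower (-2.58, SE 0.67, adjusted p = 0.0217), which was lost without any 1 of its libraries (adjusted p = 0.065 to 0.15 in limma). Aorta was lower (-2.01, SE 0.67, adjusted p = 0.0183), but without aorta 1 the fold change was -0.63 (adjusted p = 0.372 in limma). The call was also lost with array weights (adjusted p = 0.44 in limma), in edgeR (adjusted p = 0.146) and in DESeq2 (adjusted p = 0.0617).

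COX-2 is an early response gene in many cells. Of 25 immediate early genes, 8 were higher and 0 lower in bladder, 15 higher in heart, 12 higher and 1 lower in aorta, and 22 lower in intestine. Over all tested genes 8.31% were higher in bladder, 6.03% in heart and 9.15% in aorta, and 9.97% were lower in intestine. Fos was at 26519, 15593 and 11127 in the shallow aorta libraries and 20329 in the shallow heart 3. It was at 3689 and 3244 in heart 1 and 2 and at 3219 to 5433 in bladder. How far depth and the ceiling in reads per base set these values was not tested, so the tissue orders of Fos and Ptgs2 cannot be compared. Of 14 inflammatory inducers and targets, 6 were higher in bladder and 6 in heart, against the same 8.31% and 6.03%. The part of these genes in the Ptgs2 result was not tested.

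Ptges, which encodes microsomal prostaglandin E synthase 1 (ENSMUSG00000050737, chromosome 2, 30779483 to 30819875, minus strand), had a signal of 2417, 2023 and 1680 in bladder and 884, 1016, 799 and 847 in intestine. It had 290, 393 and 316 in stomach, 135, 294 and 258 in kidney, 105, 165 and 165 in lung, 46, 80 and 89 in heart and 47, 0 and 0 in aorta, from 5 rebuilt reads in all. Bladder lay above all other libraries, intestine next and clear of the rest, and the other 5 tissues followed in a falling series. Bladder was higher than the mean of the other 6 in limma (log2 fold change 4.13, SE 0.71, adjusted p = 0.000465), intestine was higher (2.74, SE 0.63, adjusted p = 0.00322) and aorta was lower (-6.50, SE 0.71, adjusted p = 1.43e-06). These 3 calls held under every alternative that tested them, with fold changes of 3.14 to 4.44 in bladder, 1.71 to 3.05 in intestine and -8.37 to -4.95 in aorta. Bladder and intestine did not differ from each other by the test (1.19, adjusted p = 0.424), although their libraries did not overlap. Without the aorta libraries heart was also lower than the mean of the other 5 (-2.68, adjusted p = 7.31e-07 in limma), as was lung (-1.45, adjusted p = 0.000393).

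Other cell types moved with the bladder enzymes. Of 18 fibroblast and mesothelial markers, 14 were higher and 0 lower in bladder, and of 11 leukocyte markers tested, 9 were higher, against 8.31% higher over all tested genes. Their summed signal there was 45461 to 67677 and 3256 to 7007. Pdgfra, a fibroblast marker, was at 6331, 2926 and 3782 in bladder and 5111, 5130, 4580 and 4046 in intestine, against 46 to 330 in aorta. Pi16, another marker of the list, was at 2889, 3114 and 4825 in bladder and 41 to 68 in intestine, against 89 to 923 in aorta. The summed list in aorta, 25203 to 65850, overlapped that in bladder, while Ptges was at or near 0 in aorta. By marker the 2 tissues differed: 3 of the 18 were higher and 10 lower in aorta, against 9.15% and 42.8% over all tested genes. Lrrn4, Msln and Wt1 of the list were at 0 in every aorta library. The urothelial gene Upk3a was at 20, 0 and 1240 in bladder 1, 2 and 3, and the basal epithelial gene Krt5 at 63, 60 and 105. Without bladder 3 the bladder fold change of Ptgs1 was 3.85 but its call was lost (adjusted p = 0.0529 in limma), whereas the Ptgs2 and Ptges calls held. The part of fibroblast, leukocyte and urothelial RNA in these results was not tested.

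Ptgis, which encodes prostacyclin synthase (ENSMUSG00000017969, chromosome 2, 167033725 to 167082524, minus strand), had the largest F of the 10 genes (42.2, adjusted p = 2.8e-08 in limma) and lay above 3 reads in every library. It had a signal of 3910, 3972 and 5763 in aorta. It had 1365, 1678 and 2231 in bladder, 1568, 1808 and 1733 in lung, 1492, 1485 and 1432 in heart, 1028, 1672 and 943 in kidney, 603, 727, 583 and 833 in intestine and 466, 349 and 532 in stomach. Aorta lay above all 19 other libraries, and the stomach libraries below all others. Aorta was higher than the mean of the other 6 in limma (log2 fold change 2.06, SE 0.18, adjusted p = 1.09e-07), intestine was lower (-1.11, SE 0.16, adjusted p = 3.81e-05) and stomach was lower (-1.83, SE 0.18, adjusted p = 3.67e-07). All 3 calls held under every alternative, the aorta fold change lying between 1.88 and 2.20. Aorta was higher in all 6 of its pairs, from bladder (1.38, SE 0.24, adjusted p = 0.000261) to stomach (3.34, SE 0.24, adjusted p = 4.79e-09), although the pairs with bladder, heart and lung were lost with array weights. Bladder, lung, heart and kidney did not differ from each other by the test.

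Aorta was the shallowest tissue, so Ptgis was also read at matched depth. Aorta 1, with 629456 rebuilt reads in all, had 415 of Ptgis, against 177 in heart 3, with 817157. Ptgis lay at 0.162 to 0.680 reads per exonic base in aorta and at 0.653 to 1.06 in lung, and how far a ceiling near 2 reads per base lowered the signal of the deeper libraries was not tested. Endothelial cells can express Ptgis. Of 18 endothelial markers, 14 were lower and 0 higher in aorta, against 42.8% lower over all tested genes. Their summed signal was 2544 to 5227 in aorta and 2999 to 5818 in bladder. The endothelial cadherin gene Cdh5 was at 9, 0 and 0 in aorta, where a gene at 0 was only not detectable. Pecam1, another marker of the list, was at 518, 559 and 525 there and at 287 to 336 in bladder. In heart 10 of the 18 markers were higher and 1 lower, against 6.03% and 12.4% over all tested genes, and Cdh5 was at 186 to 768. Ptgis did not pass in heart (0.19, SE 0.18, adjusted p = 0.503 in limma). The part of endothelial RNA in the Ptgis result was not tested.

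**Figure D4:**
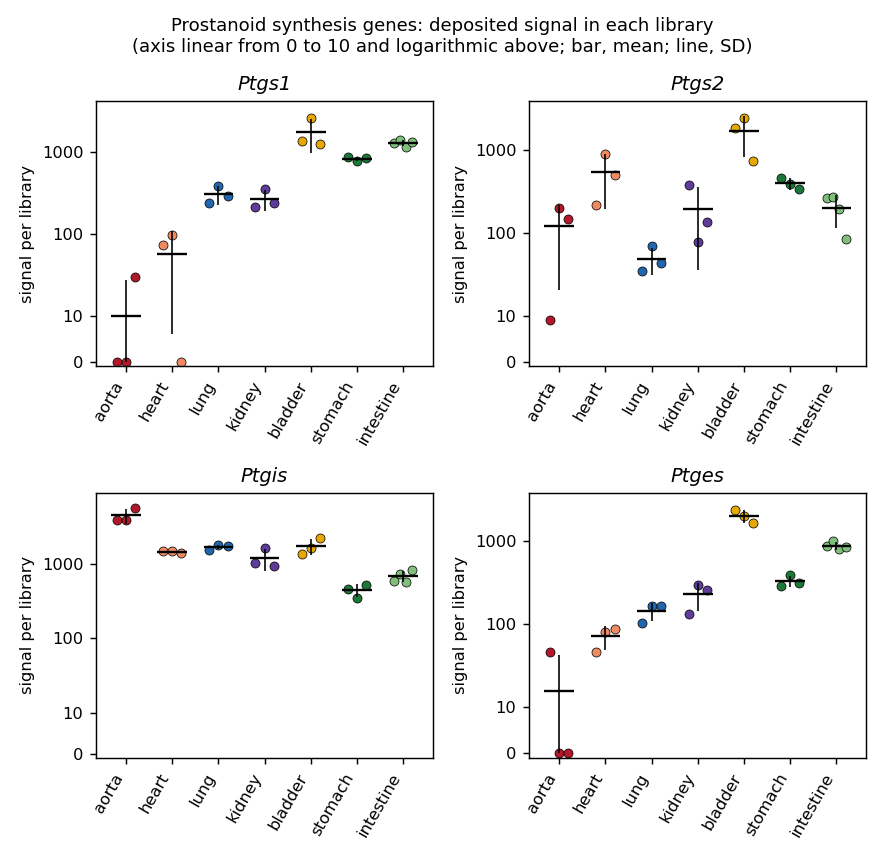
Deposited signal of Ptgs1, Ptgs2, Ptgis and Ptges in each of 22 libraries (points, coloured by tissue), with the tissue mean (bar) and SD (line, cut at 0), on an axis that is linear from 0 to 10 and logarithmic above. Aorta points are the highest for Ptgis, at 3910 to 5763, and reach 0 for Ptgs1 and Ptges, whereas bladder points are the highest for Ptges, at 1680 to 2417.

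The balance of the terminal synthases was compared within libraries. The ratio of Ptgis to Ptges per exonic length was 127 in aorta 1 and had no value in aorta 2 and 3, where Ptges was at 0. It was 24.6 to 49.7 in heart, 16.1 to 22.9 in lung and 5.6 to 11.7 in kidney. It was 1.36 to 2.58 in stomach, 1.04 to 1.51 in intestine and 0.865 to 2.03 in bladder. Heart, lung and kidney did not overlap each other, whereas stomach, intestine and bladder did. The ratio of Ptgs1 to Ptgs2 per exonic length followed another order. It was 5.70 to 18.4 in intestine, 6.61 to 7.95 in lung, 2.15 to 2.93 in stomach, 0.648 to 5.41 in kidney and 0.854 to 1.93 in bladder, against 0 to 0.397 in heart and 0 to 0.237 in aorta. COX-1 message thus exceeded COX-2 message in every intestine, lung and stomach library, and COX-2 exceeded COX-1 in every heart library and in aorta 2 and 3. In aorta 1 the signal was 9 for Ptgs2 and 0 for Ptgs1, where a count of 0 allowed up to 28.3, so these 2 cannot be ranked.

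**Figure D5:**
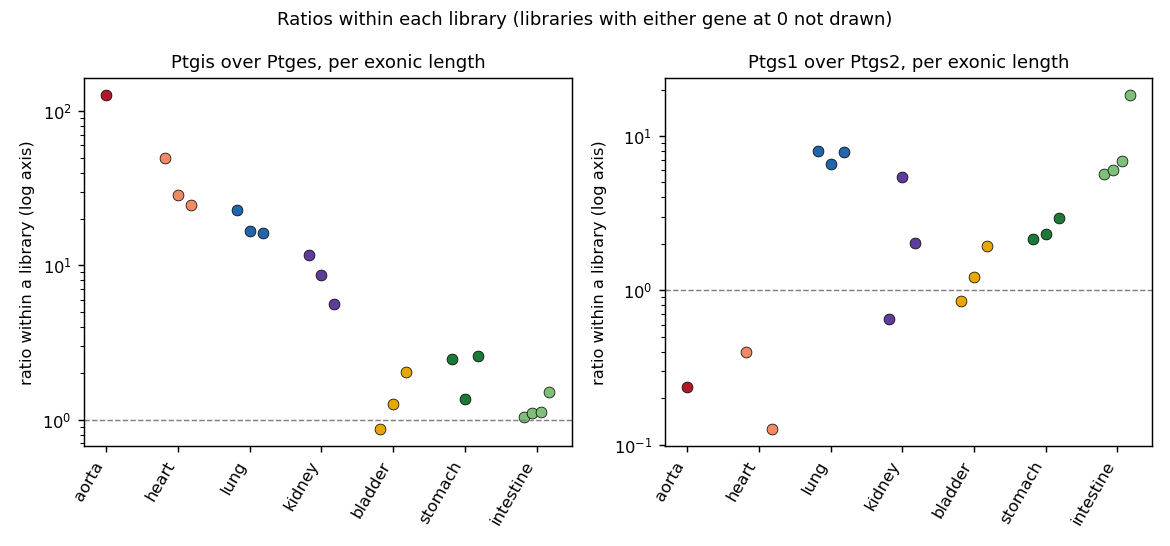
Ratios within each library (points, logarithmic axis) of Ptgis to Ptges on the left and Ptgs1 to Ptgs2 on the right, both per exonic length, by tissue, with a dashed line at 1 and libraries with either gene at 0 left out. On the left heart, lung and kidney lie between 5.6 and 49.7, above stomach, intestine and bladder at 0.865 to 2.58, and on the right heart and aorta lie below 1.

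Across libraries, Pearson's r of log2(signal + 1) between members is given as a description, over points that share library depth, tissue and sort. Ptgs1 and Ptges had r = 0.76 over 22 libraries and 0.93 over the 18 without aorta and heart 3. Tbxa2r and Ptgs2 had r = -0.79 and -0.86, and Ptger1 and Ptgis had -0.82 and -0.86, over the same 22 and 18. Ptger2 and Ptgir had r = 0.77 over 22 and -0.41 over 18, so that value rested on the shallow libraries. The genes most alike Ptgis over 22 libraries were Ctsa (r = 0.939), Uchl1 (0.936) and Wfdc1 (0.933). Those most alike Ptges were Dennd2a (0.914), Dnm1 (0.913) and Rgl1 (0.911), and those most alike Tbxa2r were Cd59a (0.887), Bik (0.864) and Spag7 (0.862).

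Of 30 other prostanoid pathway genes, 28 were tested and 24 passed the F test, against 59.6% of all tested genes. In aorta 2 were higher and 14 lower, in bladder 6 higher and 2 lower, in stomach 7 higher and 3 lower, and in heart 0 higher and 9 lower. The shares over all tested genes were 9.15% higher and 42.8% lower in aorta, 8.31% and 7.4% in bladder, 13.4% and 6.93% in stomach, and 6.03% and 12.4% in heart. Hpgd, the dehydrogenase that inactivates prostaglandins, had a mean signal of 1363 ± 387 in lung and 767 ± 87.9 in stomach, against 24.7 ± 14.5 in heart and 3.0 ± 5.2 in aorta (SD, n = 3). It was higher in lung than the mean of the other 6 in limma (log2 fold change 3.81, SE 0.55, adjusted p = 0.000203). Pla2g10, a secreted phospholipase A2 that frees fatty acids such as arachidonic acid, was at 346 ± 55.4 in stomach and 20.0 ± 7.62 in intestine, and at 0 in every aorta, heart and kidney library. The part of epithelial RNA in the lung, stomach and intestine values of Hpgd and Pla2g10 was not tested. Pla2g5, another secreted phospholipase A2, was at 111 ± 42.9 in intestine and 78.3 ± 44.1 in stomach, and at 0 in every aorta and bladder library. Anxa1, whose protein restrains phospholipase A2, was at 7119 ± 2294 in aorta and higher there in limma (1.93, SE 0.19, adjusted p = 5.63e-07). How far the ceiling in reads per base and the low depth of aorta set this Anxa1 difference was not tested.

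Several further genes of the pathway are named here after their values were seen. Pla2g4a, the cytosolic phospholipase A2 upstream of both COX enzymes, had a mean signal of 2650 ± 595 in bladder, 1385 ± 160 in intestine and 1330 ± 224 in stomach, against 223 ± 187 in heart. The 3 tissues with the highest Pla2g4a were those with the highest Ptgs1 and Ptges. Slco2a1, the prostaglandin uptake transporter, was at 2173 ± 525 in kidney, against 36.3 ± 10.8 in heart. Tbxas1, thromboxane synthase, was at 154 ± 43.0 in stomach and at most 37.0 ± 16.5 in the other 6 tissues, so in lung and aorta, where Tbxa2r was highest, it was at 19.3 ± 3.79 and 1.0 ± 1.73. The other PGE synthases were more even than Ptges: the tissue means of Ptges2 ran from 437 to 663 and those of Ptges3 from 408 to 708.

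Downstream of the receptors, 21 of 27 tested genes of the cyclic AMP arm passed the F test, and 19 of 23 of the Gq, G12/13 and Gi arm, against 59.6% of all tested genes. In aorta 2 genes of the cyclic AMP arm were higher and 16 lower, and 5 of the Gq, G12/13 and Gi arm were higher and 12 lower, against 9.15% and 42.8% of all tested genes. The median log2 fold change in aorta was -1.68 for the cyclic AMP arm and -0.57 for the other arm, against -1.04 over all tested genes. Plcb4, a phospholipase C beta that Gq activates, had a mean signal of 1744 ± 115 in lung and 1565 ± 643 in aorta, the tissues with the highest Tbxa2r, against 168 ± 76.9 in intestine. Ppp1r14a, the myosin phosphatase inhibitor CPI-17, was at 3116 ± 871 in aorta and 366 ± 29.0 in stomach. Akap12, an anchor of protein kinase A, was at 168 ± 139 in aorta and 3187 ± 1703 in bladder, and Pde4c, a cyclic AMP phosphodiesterase, at 572 ± 140 in heart and 394 ± 100 in kidney, against 3.33 ± 4.16 in lung (SD, n = 3 each, and n = 4 for intestine).

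Further genes that the naming rule gave in these lists follow. Pde4b, a cyclic AMP phosphodiesterase, had a mean signal of 3855 ± 2099 in heart and 567 ± 19.6 in stomach. Pde8a, another, was at 443 ± 24.6 in stomach and 9.0 ± 9.54 in aorta, and Pde7b, of the same kind, was highest in bladder, at 80.0 ± 28.1, and at 0 in every aorta library. Prkar1a, a regulatory subunit of protein kinase A, was at 7126 ± 4368 in heart and 7118 ± 1205 in aorta, against 2656 ± 267 in stomach and 2630 ± 189 in intestine. The part of the read ceiling and of the shallow libraries in the Prkar1a values was not tested. Gnai2, a Gi subunit of the kind EP3 couples to, was at 4146 ± 898 in aorta and 1815 ± 237 in intestine. Prkcd, a protein kinase C, was at 1682 ± 230 in heart and 491 ± 22.9 in intestine. Slco3a1, an organic anion transporter that can carry prostaglandins, was lower in stomach in limma (737 ± 81.6, log2 fold change -0.60, SE 0.21, adjusted p = 0.0492).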

How the data were processed

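RNA was sequenced from 22 libraries of sorted mouse arterial smooth muscle cells, grouped by the tissue labels. Per the labels' protocols, cDNA was made from up to 10 ng of RNA with SMART-Seq v4, which does not mark strand. The submitters' processing notes name the mm39 build and, without roles, STAR 2.7.10a, Trimmomatic 0.39, featureCounts 2.0.4, Picard 3.0.0, DESeq and DESeq2 1.36.0. The authors deposited 1 table of 28099 genes that holds a signal in whole numbers, and the scaling by library was read off the numbers themselves. A likelihood search over table values of 15 to 1500 estimated what 1 read is worth in each library, and division gave rebuilt reads. In aorta 1 and heart 3 100.0% of values lay on whole multiples of the step within rounding. For 96.2% of genes an exonic length was found by identifier in GENCODE M21, which is on GRCm38.

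limma-trend (limma 3.58.1, R 4.3.3) took log2(signal + 1) of the 16917 genes that reached 10 units of signal in 3 or more libraries. All 22 libraries entered 1 fit of 7 tissues, with an F test, each tissue against the unweighted mean of the other 6, and 21 pairs. Benjamini-Hochberg adjustment ran over all tested genes, with a threshold of 0.05. Fold changes are on this scale, and those of genes at or near 0 depend on the pseudocount. Alternatives, 35 in all, changed the pseudocount, filter, scaling or weights, used edgeR 4.0.16 or DESeq2 1.42.0 on rebuilt reads, added the replicate number as a block, or left out libraries. The scripts were tested on simulated data.

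The members and gene lists were chosen with earlier results of these data known. Named were all 10 members, and from each list the 4 largest F among its passing genes and the 2 highest means among its tested genes. For the 3 members with the largest F, the 3 genes with the highest Pearson r were named, leaving out predicted genes. Acta2 and Cspg4 were named as the genes that drive the recombinases. Intervals and floors cover counting error only. Some results that the naming rule and the overlap check gave are not reported here.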

Additional observations from a re-analysis of the deposited data

How the results depend on the processing

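All 10 genes passed the F test in every alternative, except that DESeq2 gave no adjusted p for Ptger2 and so counted 9, and that edgeR restricted to genes under 0.5 reads per base tested only 4 of the 10, which all passed (4). In that restricted fit the calls against the other 6 tissues numbered 8 and those between pairs 22, because 6 genes were not tested. Elsewhere the 26 calls against the other 6 tissues became 39 with array weights, 33 in DESeq2, 29 in edgeR and 24 with the replicate block, and ranged from 23 to 30 when 1 library was left out. The 84 pair calls became 116 with array weights and 77 with the replicate block, and ranged from 76 to 94 when 1 library was left out, where the F test gave 10 to 10. Of the 84, 51 held under all alternatives and 33 were lost under at least 1. Ptger2 in aorta over kidney turned sign, to 0.24 in edgeR, 0.11 in DESeq2 and 0.47 in the restricted edgeR fit, and in aorta over heart it came to 0 in the restricted fit, and the cause was not tested. Same-numbered libraries had a median correlation of -0.0101 of their deviations (-0.104 to 0.26, 63 pairs), and others 0.00917 (-0.288 to 0.216, 144 pairs). With so few libraries in each tissue, these values cannot show whether equal replicate numbers mark the same mouse. With the replicate block the F test still gave 10, and the calls of Ptger3 in lung and Ptger4 in intestine were lost (adjusted p = 0.0725 and 0.0543 in limma). Depth limits what can be said of aorta and heart 3, where a gene at 0 was only not detectable.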

Other observations

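The leukotriene branch, which starts from the same arachidonic acid, was described by a list of 13 lipoxygenase and leukotriene genes, of which 10 were tested and 7 passed the limma F test, against 59.6% of all tested genes. Stomach had 5 of them higher and 0 lower, and aorta 0 higher and 7 lower, against 13.4% of all tested genes higher in stomach and 42.8% lower in aorta. Cysltr1, a receptor for cysteinyl leukotrienes that contract smooth muscle, had a mean signal of 246 ± 69.1 in intestine (SD, n = 4) and 162 ± 29.8 in lung, against 1.0 ± 1.73 in heart (SD, n = 3), and was at 0 in every aorta library. Cysltr2, the other such receptor, had its highest mean in stomach, at 44.7 ± 9.29. Alox5, the lipoxygenase that starts leukotriene synthesis, was at 42.0 ± 22.3 in stomach and at 0 in every aorta and kidney library. Ltc4s, leukotriene C4 synthase, had its highest mean in stomach, at 18.3 ± 1.53, and was at 0 in every aorta library. Lta4h, leukotriene A4 hydrolase, did not pass the F test (adjusted p = 0.216 in limma). Ephx2, the soluble epoxide hydrolase, was at 814 ± 57.2 in stomach and 781 ± 351 in kidney, against 89.0 ± 40.1 in bladder.

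Of the prostanoid receptors outside the 10 genes, Ptgfr, the receptor of prostaglandin F2 alpha, had a mean signal of 162 ± 56.5 in kidney and 161 ± 93.6 in heart (SD, n = 3), against 10.5 ± 7.59 in intestine (SD, n = 4). The prostaglandin D2 receptor gene Ptgdr had no tissue mean above 18.0. These genes were named after their values were seen.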
